A study of Danio rerio with 3 samples.

Results

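The ependymin gene epd (ENSDARG00000103498) was described in RNA-seq libraries of muLECs, mural lymphatic endothelial cells, of the adult wildtype zebrafish brain. It is 1 gene of the 32105 rows of the deposited count table. It was chosen by its own values in these libraries, namely its share of the reads, its rank and its evenness between libraries. Those values are therefore given as a description, with no test. The series holds 1 group of 3 libraries, and each library pooled cells from 6 brains that had been digested with Liberase and sorted on a lyve1 DsRed reporter. There is no control population, treatment or second genotype to set it against, and every spread given here is the spread between these 3 pools. The sorted pools have no per-cell information: in such bulk RNA, fewer cells of a type and less RNA per cell cannot be told apart.

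Ependymin is a secreted glycoprotein that was first described in the goldfish, where it is a major protein of the cerebrospinal fluid and the fluid between brain cells. In bony fishes it is known as a product of cells of the meninges, it binds calcium and collagen, and it has been studied in optic nerve regeneration and in memory formation. muLECs lie along the blood vessels of the zebrafish meninges as single cells that form no tubes, and they carry scavenger receptors with which they take up material from the surrounding fluid.

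Libraries held 34307745 to 36044297 reads in genes. The sorted cells were described on a lymphatic endothelial list. Of its 12 rows, 10 were detected, that is, had at least 10 reads in at least 2 libraries. Of all rows, 22.1% were detected, and of rows with a symbol 25.8%. Lists of other cell types ran from 0 of 4 rows for erythrocytes to 12 of 18 for meningeal fibroblasts and 8 of 9 for neurons. Detection alone therefore cannot show which cells were sorted. The mannose receptor gene MRC1 stood at 3972, 4233 and 4506 CPM (reads per 1000000 reads of the library) in replicates 1, 2 and 3, and lyve1b, a copy of the gene whose reporter was used for the sort, at 687, 415 and 766 CPM. The endothelial genes cdh5 and kdrl had at most 3 reads in any library. The lymphatic identity gene PROX1 had 614, 1213 and 1 reads.

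epd took a large part of all reads in every library. It had 1931075 reads in replicate 1, 1424904 in replicate 2 and 4021548 in replicate 3, which was 5.36%, 4.05% and 11.7% of the reads of each library. The mean share was 7.04% ± 4.104 (SD, n = 3). At this depth the exact binomial 95% intervals spanned at most 0.0215 percentage points, and they cover counting error only, since amplified reads are not independent molecules. Replicate 3 held the highest share, 2.19 times that of replicate 1 and 2.89 times that of replicate 2. Put as a frequency, 1 read in 18.7, 24.7 and 8.53 came from epd. Without replicate 3 the mean share was 4.70%.

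epd was the second row by reads, and its place was nearly the same in each library. It ranked 2, 3 and 2 among all rows, and 2 by its mean share. Reads were not divided by gene length, so the rank orders reads and not transcript copies. The single row above it was malat1, a long non-coding RNA kept in the nucleus, at 28.4%, 33.3% and 21.1% of reads. The ranges of malat1 and epd did not overlap. The row directly below was GLUL (ENSDARG00000099776), a glutamine synthetase that makes glutamine from glutamate and ammonia, at 4.65%, 4.75% and 5.31%. The range of GLUL lay inside that of epd, so the order of these neighbours did not hold beyond their spread: epd stood below GLUL in replicate 2, with 0.853 of its reads, and above it in replicates 1 and 3, with 1.15 and 2.21 times its reads. Without replicate 3 the mean shares of epd and GLUL were 4.70% for each, a ratio of 1.00.

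The next rows were MT-CYB, the mitochondrial cytochrome b gene, with a mean of 3.18% ± 0.515 (SD, n = 3), and GGCT (ENSDARG00000005085), a γ-glutamylcyclotransferase of glutathione turnover, with 2.62% ± 1.56. They were followed by ENSDARG00000080337, which has no symbol in the table used, with 1.77% ± 0.156, and si:ch211-276i12.12 with 1.73% ± 0.243. Of these 4 rows, only the range of GGCT overlapped that of epd, through its 4.40% in replicate 3.

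**Figure D1:**
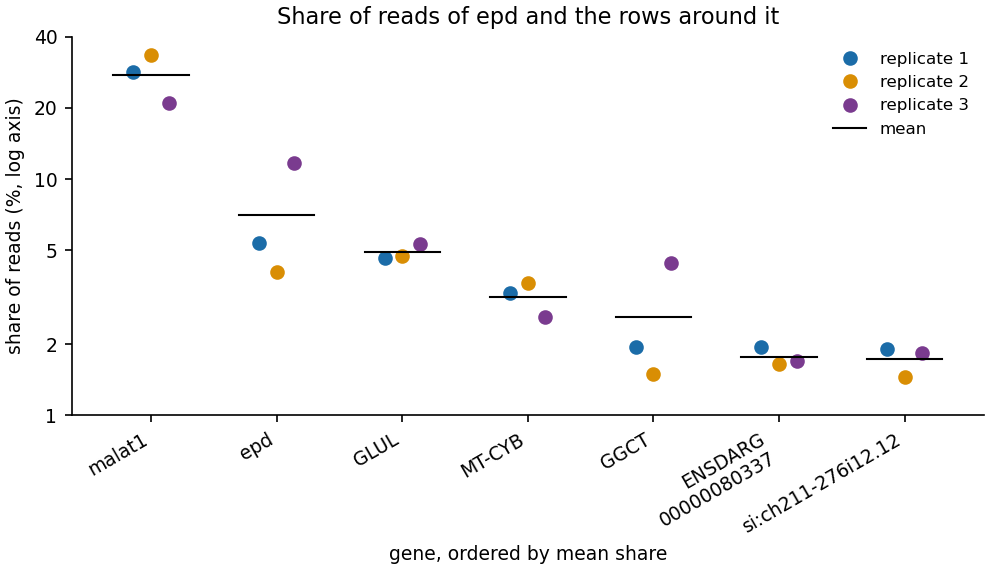
Share of reads (%, log axis) of epd, of the single row above it and of the 5 rows below it, with 1 point for each of the 3 libraries and a line at the mean. epd lies at 5.36%, 4.05% and 11.7%, and GLUL between 4.65% and 5.31% lies inside its range, whereas malat1 lies at 21.1% or more in each library.

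The weight of epd can be seen against the low end of the table. In replicate 1 the 11520 lowest rows with a read, 84.8% of all rows with a read, together held no more reads than epd alone. In replicates 2 and 3 these were 9750 and 12367 rows, or 82.5% and 91.0%. Mitochondrially encoded genes, as far as their symbol showed it, together took 6.19%, 6.16% and 5.54% of reads. Ribosomal protein genes, found in the same way, took 1.01%, 0.830% and 1.11%. Rows without such a symbol were not counted. epd had fewer reads than the mitochondrial genes so counted in replicates 1 and 2 and more in replicate 3. It had more than the ribosomal protein genes so counted in all 3 libraries.

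**Figure D2:**
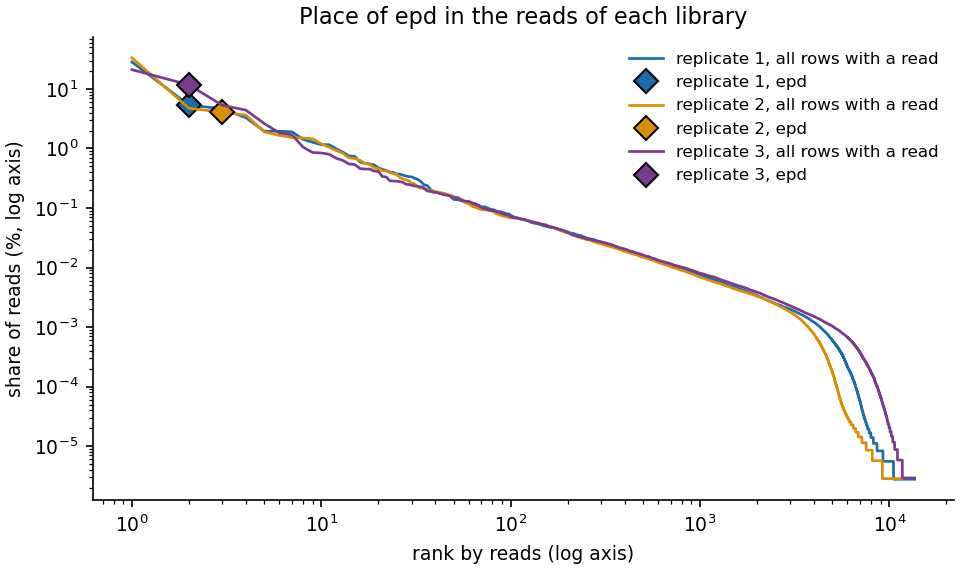
Share of reads (%, log axis) of every row with a read against its rank in the library (log axis), 1 line for each library, with epd as a diamond. The diamonds lie at ranks 2, 3 and 2, and the lines of the libraries run close together until they part among the rows of few reads.

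The authors also deposited YuGene scores, a within-library score between 0 and 1 that falls from the highest row to the lowest and so keeps the order of the counts. The score of epd was 0.99886, 0.99805 and 0.99904 in replicates 1, 2 and 3, and GLUL scored 0.99833, 0.99866 and 0.99861.

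epd was uneven between libraries, and how uneven depended on the scaling. With plain library size its coefficient of variation was 0.583. TMM factors, a scaling of edgeR, assume that most genes are level between libraries. For the rows with at least 200 CPM they moved the median difference between libraries away from level, as given below. With TMM factors the shares were 5.11%, 5.09% and 9.78% (6.66% ± 2.70, SD, n = 3) and the coefficient was 0.405. With DESeq2 size factors they were 5.004%, 5.63% and 7.87%, with a coefficient of 0.245. Replicate 3 was highest under each of these scalings, whereas the order of replicates 1 and 2 turned with the DESeq2 size factors. Without replicate 3 the coefficient was 0.196. With malat1 left out of the totals the shares of epd were 7.48%, 6.08% and 14.9%, so replicate 3 was also highest among the reads that did not come from malat1.

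Against other high rows, epd was among the less even with plain library size. With TMM factors it stood near the middle of the highest rows: 48 of the other 99 of the 100 highest varied less. Of the 5 other rows whose mean lay within 4-fold of that of epd, 4 had a smaller coefficient of variation and GGCT a larger one, at 0.596. With TMM factors 3 of these 5 had a smaller coefficient, and 80% of the 5 rows within 4-fold by TMM level. GLUL was the most even of them at 0.0734. Among the other 19 of the 20 highest rows, 17 varied less than epd with plain library size, GGCT and the heme oxygenase gene HMOX1 being the exceptions, but 8 varied less with TMM factors. Of the 385 other rows with at least 200 CPM and 10 reads in each library, 339 (88.1%) varied less with plain library size, and 236 (61.3%) with TMM factors. Their median coefficient was 0.281 and 0.317.

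The difference of replicate 3 was also read against the median of these 385 rows, which removes any library scaling. Relative to that median, epd was higher in replicate 3 than in replicate 1 by 1.11 on the log2 scale (2.16-fold) and higher than in replicate 2 by 1.45 (2.74-fold). Between replicates 1 and 2 the same difference was 0.30 (1.23-fold). Of the 385 rows, 20 had a larger step from replicate 1 to replicate 3 than epd, and 27 a larger step from replicate 2 to replicate 3. TMM factors moved the median step of these rows from 0.02 to -0.18 between replicates 3 and 1, from 0.08 to -0.51 between 3 and 2, and from 0.10 to -0.30 between 1 and 2. Of all 386 rows, epd included, 38.9% were highest in replicate 3 with plain library size and 18.1% with TMM factors.

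**Figure D3:**
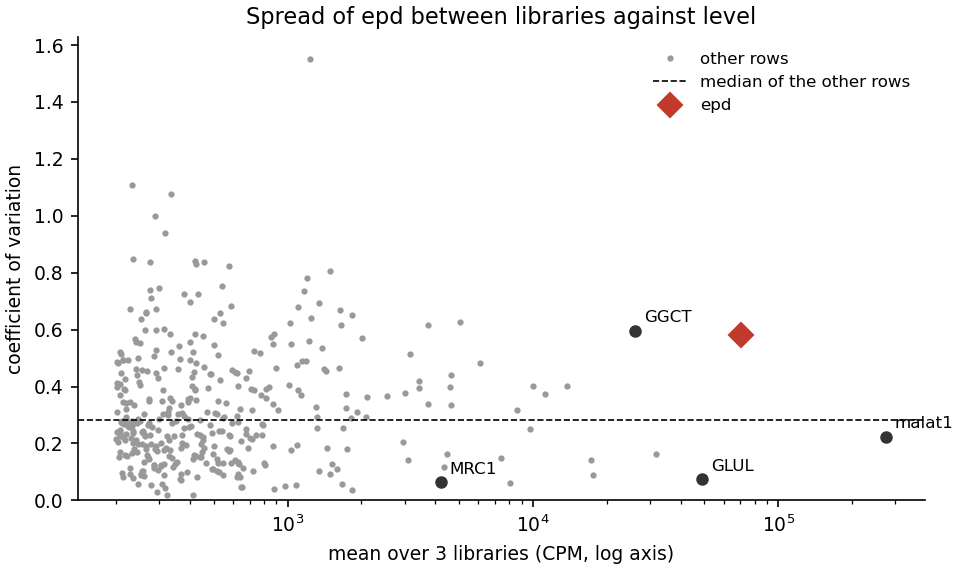
Coefficient of variation over the 3 libraries against mean level (CPM with plain library size, log axis) for the 386 rows with at least 200 CPM and 10 reads in each library. epd (diamond) and GGCT stand at 0.583 and 0.596, above the dashed median of 0.281, while GLUL at 0.0734 and MRC1 lie near the bottom.

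Within a library, ratios of reads between genes are free of scaling. The reads of epd per read of malat1 were 0.189, 0.122 and 0.556 in replicates 1, 2 and 3. Per read of MRC1 they were 13.5, 9.57 and 26.0, and per read of lyve1b 78.0, 97.7 and 153. Each of these ratios was highest in replicate 3, and the order of replicates 1 and 2 differed between them. epd was thus higher in replicate 3 also when set against MRC1 and lyve1b. Per read of sox18, a gene of lower level on the lymphatic endothelial list, the values were 8396, 7872 and 7979, highest in replicate 1. For the other genes of that list with at least 10 reads in each library, the ratio was highest in replicate 3. Together malat1 and epd took 33.7%, 37.4% and 32.8% of reads, a sum that varied less than epd did. malat1 made up most of that sum and alone had a coefficient of variation of 0.223, so the sum shows no link between the genes.

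Over all 3 libraries, the gene whose pattern was most like that of epd was GGCT. Without replicate 1 or 3 it was the second or the seventh nearest, and without replicate 2 again the nearest. Likeness was measured, over the 3 libraries, as the largest difference between the log2 shares of the genes, each centred on its own mean, a distance that no library scaling can change. GGCT had 703710, 527742 and 1510298 reads, 1.95%, 1.501% and 4.40% of each library. epd had 2.74, 2.70 and 2.66 reads per read of GGCT, although the share of epd itself spanned 2.89-fold. The distance of GGCT was 0.02 on the log2 scale, against a median of 0.92 over 369 genes with a symbol, at least 200 CPM and 10 reads in each library. RefSeq (GRCz12tu) lists 2 copies, ggcta and ggctb, neither on the chromosome of epd, and the symbol table does not say which of them carries this ID. Whether any reads are counted at both genes was not tested.

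Among the 369 genes with at least 200 CPM, the distances after GGCT grew in steps. Genes of lower level, such as sox18 at 0.06, were not ranked here. The next of the 369 was fxyd3, a small regulator of the sodium pump, at 0.13 and with 300, 223 and 569 CPM. MDK, the growth factor midkine, followed at 0.14 with 218, 185 and 451 CPM, and b2ml, a β2-microglobulin-like gene, at 0.19 with 826, 535 and 1955 CPM. With plain library size, each of these was highest in replicate 3 and lowest in replicate 2, as epd was. So small a distance from epd fixes this order in advance. The last of the 6 nearest were cpn1 (ENSDARG00000096728) at 0.19 and CPN1 (ENSDARG00000005185) at 0.20, both named for a carboxypeptidase N subunit. Their reads, 17126, 14051 and 30916 against 17969, 15022 and 32244, were close to each other, and whether the copies share reads cannot be told from the counts, so both are uncertain. In all, 42 of the 369 genes (11.4%) lay within 0.5 of epd. Without replicates 1, 2 and 3 the count was 111 of 369 genes, 158 of 374 and 290 of 357. The distance cannot grow when a library is left out, so these counts are not comparable with the 42. GLUL lay at 0.77, MRC1 at 0.80 and malat1 at 1.25. With 3 libraries such likeness is a description of these pools.

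**Figure D4:**
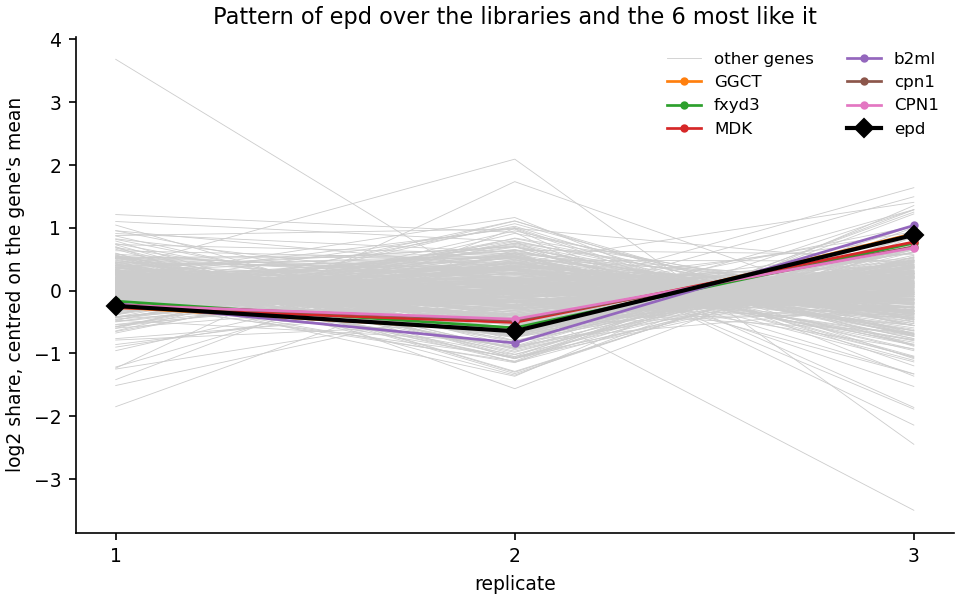
Log2 share of reads in each replicate, centred on the gene's own mean, for epd (black), the 6 genes most like it (coloured) and the other genes with at least 200 CPM (grey). Lines join the values of a gene and imply no order of the replicates. The line of GGCT is hidden by that of epd, from which it differs by at most 0.02.

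epd was the single ependymin gene with many reads. The family list held 4 genes, all found in the table. The ependymin-like gene epdl1 (ENSDARG00000076386) had 848, 10 and 1741 reads, that is 23.5, 0.284 and 50.7 CPM. Its exact Poisson 95% interval in replicate 2 was 4.80 to 18.4 reads. Like epd, epdl1 was highest in replicate 3 and lowest in replicate 2, but epd had 2277 and 2310 reads per read of epdl1 in replicates 1 and 3 and 142490 in replicate 2. Its distance from epd was accordingly 3.97.

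EPDR1, a gene related to ependymin whose mammalian protein is found in lysosomes, had 1, 0 and 54 reads and did not reach the detection limit. epdl2 had 0 reads in all 3 libraries, where a count of 0 allows up to 0.0832, 0.0853 and 0.0874 CPM (3 reads of each total). Of the reads of the family, epd held 99.956%, 99.999% and 99.955%.

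The genes near epd in the genome had far fewer reads, as far as they could be matched. In the gene order of RefSeq (GRCz12tu, whose build is not that of the counts, so positions are not given), myo1ca, a myosin gene, precedes epd and had 1, 0 and 121 reads. A locus without a gene name, LOC567472, lies between them and was not matched to a row, so no reads are given for it. On the other side come panx1b, a pannexin channel gene, and ins, the insulin gene. Both IDs that the symbol table names PANX1 had 0 reads in every library, and so did ins. The gene after ins, arhgap35b, had 1634, 6 and 72 reads, the most of the matched neighbours, up to the third on each side.

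Ependymin is secreted, so the genes of other secreted proteins of brain fluids and of the secretory pathway were set beside it. Of 31 rows for secreted brain fluid proteins, 18 were detected, against 25.8% of all rows with a symbol. The selenium carrier gene selenop stood highest at 7370, 6349 and 8560 CPM, followed by the protease inhibitor gene TIMP2 (ENSDARG00000061226) at 1291, 2143 and 1635 CPM and the copper carrier gene CP at 799, 1372 and 2771 CPM. The sum of the list was 13112, 13261 and 19478 CPM, and epd had 4.09, 3.06 and 6.02 reads per read of the whole list. Among the 17 rows of the list with at least 10 reads in each library, 1 lay within 0.5 of epd, the apolipoprotein E gene apoeb at 0.40, with 1037, 576 and 2838 CPM. Of all 3951 genes with that many reads, whatever their level, 8.88% lay within 0.5. The prostaglandin D synthase gene ptgdsb.1 and the apolipoprotein gene apoa2, also of this list, had 0 reads, and the transthyretin gene TTR had 1, 0 and 0.

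A list covered the machinery that brings a secreted glycoprotein into the endoplasmic reticulum, removes its signal peptide and adds sugars. Of its 27 rows 23 were detected, against 25.8% of all rows with a symbol, but only 13 had at least 10 reads in each library. The signal peptidase genes SPCS1 and SPCS2 had 8 and 5 reads in replicate 2, and SPCS3 had 1 in replicate 1. The highest row of the list was SEC61A1 (ENSDARG00000021669), the pore of the translocation channel, at 1185, 2136 and 892 CPM. DDOST, of the oligosaccharyltransferase, followed at 218, 71.8 and 244 CPM, and STT3A, its catalytic subunit, at 71.4, 4.98 and 265 CPM. The sum of the list, 2185, 2628 and 2281 CPM, was highest in replicate 2, and with TMM factors it was 2085, 3301 and 1903 CPM, again highest in replicate 2. The lead of replicate 2 came with SEC61A1, the largest row of the sum in each library and itself highest in replicate 2. Without that row, a choice made after the values were seen, the sum was highest in replicate 3 and lowest in replicate 2 under both scalings. epd was highest in replicate 3 under both scalings. Of the 23 detected rows of the list, 13 were highest in replicate 3 with plain library size and 11 with TMM factors. Of all detected rows, 39.0% and 29.6% were. Of 13 rows with at least 10 reads in each library, 1 lay within 0.5 of epd, the channel subunit gene SEC61B at 0.21 with 641, 393 and 1038 reads. Of all 3951 genes with that many reads, 8.88% did.

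Markers of cells that could be in the sort were set beside epd in each library. In fishes, meningeal fibroblasts are the cells from which ependymin is best known. Of 18 rows for them 12 were detected, against 25.8% of all rows with a symbol. The list summed to 129, 101 and 262 CPM, highest in replicate 3 and lowest in replicate 2, as epd was. With TMM factors the sum was 124, 127 and 219 CPM, highest in replicate 3 as well, but lowest in replicate 1. epd had 414, 400 and 447 reads per read of this list, the narrowest relative range of the 11 lists plotted. Without PDGFRA, a choice made after the values were seen, these were 572, 519 and 590. The genes that filled the sum differed between libraries. SLC13A4 and ALDH1A2 stood at 19.1 and 47.8 CPM in replicate 1 and 85.0 and 34.9 CPM in replicate 3. In replicate 2 they stood at 0.227 and 0.256 CPM, and DCN was the highest gene of the list at 28.6 CPM.

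Single fibroblast genes did not all share that pattern. The platelet-derived growth factor receptor gene PDGFRA, with 1290, 818 and 2185 reads, lay at a distance of 0.17 from epd, and 35 of the 3951 genes lay nearer. The list had 3 rows with at least 10 reads in each library, and the others were DCN at 1.44 and the collagen gene COL1A2 at 2.16. The median distance of the 3951 genes was 1.29. DCN had 204, 1005 and 952 reads and COL1A2 88, 644 and 202. The sulfate carrier gene SLC13A4 had 688, 8 and 2917 reads and the retinoic acid synthesis gene ALDH1A2 1724, 9 and 1196. Of the 12 detected rows, 5 were highest in replicate 3 with plain library size and 5 with TMM factors, against 39.0% and 29.6% of all detected rows. LUM had 1, 0 and 0 reads, TBX18 0, 1 and 0, and twist1a 2, 2 and 0. The part of meningeal fibroblasts in the level of epd was not tested.

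The lists of the sorted cell type varied less between libraries as sums than epd did. With plain library size the lymphatic endothelial list spanned 1.17-fold and the pan-endothelial list 1.35-fold, against 2.89-fold for epd. Most other lists also spanned less than epd, so this was not particular to the sorted cell type. The radial glia list spanned 1.14-fold, the secretory machinery 1.20-fold, secreted proteins 1.49-fold and neurons 2.38-fold. Meningeal fibroblasts spanned 2.59-fold, oligodendrocytes 2.68-fold and mural cells 2.83-fold. Wider were the ependymal list at 3.43-fold, macrophages at 9.14-fold and erythrocytes at 58.8-fold. The lymphatic endothelial list summed to 6148, 5956 and 6950 CPM, highest in replicate 3 and lowest in replicate 2, as epd was. With TMM factors it was 5867, 7483 and 5797 CPM, so highest in replicate 2. MRC1 was the largest row of the sum. Of the 10 detected rows, 7 were highest in replicate 3 with plain library size and 2 with TMM factors, against 39.0% and 29.6% of all detected rows. epd had 8.71, 6.80 and 16.9 reads per read of this list. It had 8 rows with at least 10 reads in each library, with a median distance of 0.63 from epd. The median was 1.29 for all 3951 genes but 0.92 for the 369 with at least 200 CPM. MRC1, stab2, lyve1b, FLT4 and ANGPT2 are among those 369. PROX1, and lyve1a with 0, 976 and 754 reads, had too few reads in a library to be among the 8. Level and this filter both enter the median of the 8, so no contrast is drawn from it. Of the 8, 1 lay within 0.5, against 8.88% of all 3951 genes, and so few rows give no contrast. This was the endothelial transcription factor gene sox18, at 0.06 with 230, 181 and 504 reads. The hyaluronan receptor genes stab2 and lyve1b came next at 0.52 and 0.54, and the growth factor ligand gene ANGPT2 was farthest at 1.16. The pan-endothelial list summed to 1959, 1450 and 1882 CPM, with 27.4, 27.9 and 62.3 epd reads per read. Of its 11 rows with enough reads, 2 lay within 0.5 of epd, and the median distance was 1.04. The 2 were ramp2, a partner of the adrenomedullin receptor, at 0.43 and SOX7 at 0.50, just within the limit. Its highest genes were clec14a at 456, 322 and 334 CPM, MYCT1 at 476, 169 and 424 CPM and ramp2 at 361, 211 and 444 CPM.

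Markers of brain cells and of immune cells varied in other ways. The macrophage and microglia list had 6 of 14 rows detected, against 25.8% of all rows with a symbol. It summed to 145, 440 and 1327 CPM and was also highest in replicate 3 under both scalings. This came through the invariant chain genes cd74a, with 97.9, 196 and 656 CPM, and cd74b, with 1.61, 8.70 and 465 CPM. The third gene of that list, cyba, stood at 45.3, 172 and 111 CPM. Of the 6 detected rows, 3 were highest in replicate 3 under each scaling, against 39.0% and 29.6% of all detected rows. The third of these was c1qb with 0, 108 and 1108 reads, whereas SPI1 had 7, 1500 and 14 and c1qc 0, 620 and 511. Of the rows not detected, c1qa had 0, 0 and 480 reads, CORO1A 0, 0 and 466, havcr1 0, 1 and 346, and marco 0, 1 and 0. The 3 rows of the list with at least 10 reads in each library lay at distances of 1.01 or more. The median distance of all 3951 genes was 1.29, and 1385 of them lay nearer to epd than cd74a at 1.01. So few rows give no contrast with other genes. LCP1 had 0 reads in each library. The part of macrophages in the level of epd was not tested.

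With plain library size the remaining lists were highest in replicate 2, apart from radial glia with GLUL and erythrocytes. The counts of detected rows stand against 25.8% of all rows with a symbol. The oligodendrocyte list, with 4 of 9 rows detected, summed to 709, 1903 and 939 CPM, led by the myelin genes mbpa at 602, 1678 and 819 CPM, plp1b at 101, 79.6 and 89.8 CPM and mbpb at 2.52, 139 and 14.1 CPM. The neuron list, with 8 of 9 rows detected, summed to 75.3, 179 and 114 CPM, led by GNG3 at 44.6, 110 and 75.1 CPM and by SNAP25 (ENSDARG00000020609) at 6.35, 27.6 and 18.1 CPM. The other SNAP25 copy (ENSDARG00000058117) had 825, 8 and 483 reads. The mural list, with 3 of 11 rows detected, summed to 407, 772 and 273 CPM, led by RGS5 at 155, 519 and 22.3 CPM, TAGLN (ENSDARG00000033466) at 235, 220 and 157 CPM and rgs5b at 16.4, 33.98 and 92.8 CPM. The sums of these 3 lists were higher in replicate 2 than in replicate 3, where epd was highest, and with TMM factors as well.

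Radial glia, with 5 of 11 rows detected, summed to 47685, 49267 and 54448 CPM with GLUL and 794, 1416 and 733 CPM without it (45502, 61896 and 45417 CPM with GLUL and TMM factors), and GFAP had 0, 1 and 0 reads. The second GLUL copy (ENSDARG00000100003) stood at 413, 378 and 566 CPM. Of that list GJA1, a gap junction gene, stood at 264, 722 and 215 CPM and ATP1B4 at 528, 693 and 512 CPM. The ependymal and choroid plexus list, with 2 of 12 rows detected, summed to 31.2, 107 and 34.4 CPM. Its leading genes were cfap126 at 14.8, 72.1 and 24.95 CPM, RSPH9 at 16.3, 7.14 and 9.39 CPM and dnaaf1 with 0, 972 and 1 reads, while OTX2, KL, KCNJ13, foxj1b and RSPH4A had 0 reads in all libraries. Erythrocyte rows summed to 0.0555, 0.0569 and 3.26 CPM, with 0 of 4 detected and 0, 2 and 112 reads of hbaa1. Of all rows with a symbol, 25.8% were detected. The mural, radial glia, ependymal, neuron and oligodendrocyte lists had 3, 4, 2, 5 and 3 rows with at least 10 reads in each library. None of these lay within 0.5 of epd, but so few rows against the 8.88% of all genes give no contrast with other genes.

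**Figure D5:**
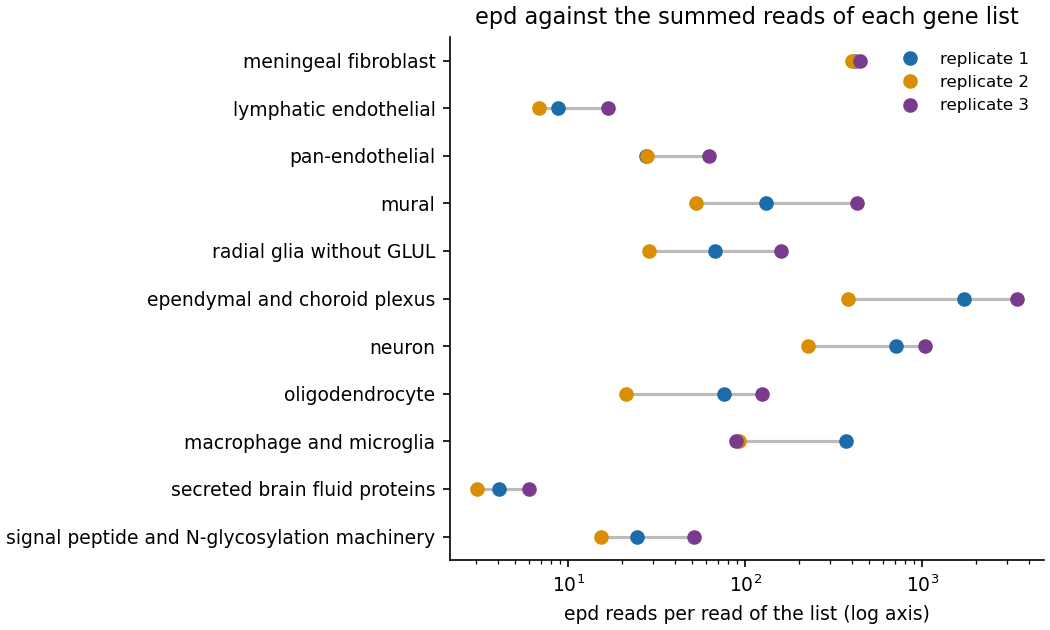
Reads of epd per read of each gene list, 1 point for each of the 3 libraries (log axis), so that a short line marks a list whose sum followed epd. The meningeal fibroblast list spans 400 to 447, although the genes that filled its sum differed between libraries. The lymphatic endothelial list spans 6.80 to 16.9 and the neuron list 226 to 1032.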

How the data were processed

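RNA was measured by sequencing in 3 libraries of sorted muLECs, each from 6 brains. Counts are whole-number reads per Ensembl gene as the authors deposited them, with no normalization. The YuGene score per gene and library was also deposited by the authors. The submitters' processing notes name GRCz10, bcl2fastq and R 3.2.2. The aligner, counting program and strand setting were not given in the sources used here. File columns, named pvLEC, were matched to samples by replicate number.

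Shares and CPM used plain library totals of 36044297, 35168650 and 34307745 reads. TMM factors (edgeR 4.0.16, rows with 10 or more reads in 2 or more libraries) were 1.05, 0.796 and 1.20, and DESeq2 1.42.0 size factors 1.10, 0.720 and 1.45. Python 3.11.15 was used for the rest. No hypothesis test was made: there is 1 group, and the gene was chosen by its level. Intervals are exact binomial or Poisson, at 95%.

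Symbols, found for 26269 rows, were matched exactly ignoring case, otherwise by the stem before a final a or b, if that stem belonged to no more rows than listed copies. A row was found for 173 of 196 listed symbols. GGCT and other names in human style may stand for any zebrafish copy. Reads were not divided by length. Named were the rows around epd by mean share, the family, the 6 nearest genes, the 3 highest genes of each list and markers at or near 0. Other list genes were named after their values were seen, for their distance or their spread between libraries. The gene and the lists were chosen with earlier results of these data known. The code of the distance and spread measures was checked on simulated counts. In these, some genes were given the pattern of epd, the others were flat, and only counting error was added. Real rows vary more than that, so the check does not show how the measures behave on them. Other scalings, filters, windows and leaving out each library were tried.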

Additional observations from a re-analysis of the deposited data

How the results depend on the processing

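The mean share of epd ran from 4.70% to 8.54% when a library was left out, and was 6.66% with TMM factors, 6.17% with DESeq2 size factors, 9.47% without malat1 and 7.48% without mitochondrial genes in the total. The rank by mean share was 2 whichever library was left out. It was also 2 by YuGene score and without mitochondrial and ribosomal protein genes, which by their construction could hardly change it. Of rows near epd in level, 100% of 1 within 2-fold and 90% of 10 within 8-fold had a smaller coefficient of variation, against 80% of 5 within 4-fold, and 75% to 87.5% when a library was left out. The coefficient of variation of 0.583 fell to 0.245 with DESeq2 size factors and ran from 0.196 (without replicate 3) to 0.688 when a library was left out. The number of genes within 0.5 of epd was 42 of 369, 153 of 1357 (11.3%) with a minimum of 50 CPM and 351 of 3951 (8.88%) with none. It ran from 111 to 290 when a library was left out. By its construction the distance cannot grow when a library is left out, so the fixed limit of 0.5 admits more genes. These counts are therefore not comparable with the 42. GGCT was the nearest gene at each minimum and without replicate 2, and the second and the seventh nearest without replicates 1 and 3. The planned rank per coding length was not run, because no table of protein sequences was used here. No paired analysis was possible because there is 1 group. Counting error is small for epd, and large for epdl1 in replicate 2, EPDR1 and epdl2, which had 54 reads or fewer there.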

Other observations

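Among the 369 genes with at least 200 CPM, others beyond the 6 nearest lay within 0.25 of epd on the log2 scale. Those given here were named after their values were seen. DUSP5, a phosphatase that acts on MAP kinases, lay at 0.20 with 991, 639 and 1664 CPM in replicates 1, 2 and 3. creg2, a secreted glycoprotein gene, lay at 0.22 with 193, 119 and 327 CPM. FOS, an immediate early transcription factor gene, lay at 0.24 with 3172, 1787 and 6298 CPM. With plain library size, these 3 genes were highest in replicate 3 and lowest in replicate 2, an order that a small distance from epd largely fixes in advance.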
